A study of Homo sapiens with 8 samples.

Results

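The Eph receptors and their ephrin ligands were examined in KYSE150 cells, a cultured line from a human squamous carcinoma of the esophagus, after knockdown of HNRNPC with a short hairpin RNA. The 10 genes were taken by symbol from the deposited count table of 16082 genes: the A-type receptors EPHA1, EPHA2 and EPHA4, the B-type receptors EPHB2, EPHB3 and EPHB4, the A-type ephrins EFNA1 and EFNA5, and the B-type ephrins EFNB1 and EFNB2. Poly(A) RNA was sequenced from 4 shHNRNPC samples, with the genotype ShHNRNPC, and 4 control samples, with the genotype Control, and the labels give no other treatment for either group. The hairpin sequence, the vector of the controls, the time after knockdown and whether cells were a clone or a pool were not stated in the labels. The labels do not say whether replicates are separate cultures, and the p-values therefore reflect the spread among these 8 libraries alone, which could be technical.

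Ephs are the largest family of receptor tyrosine kinases. They bind ephrins on neighbouring cells, so that signals run forward through the receptor and in reverse through the ligand, and they set cell repulsion, adhesion and boundaries in epithelia. A-type ephrins are held in the membrane by a lipid anchor and bind mainly A-type receptors, whereas B-type ephrins span the membrane, end in a PDZ-binding tail and bind mainly B-type receptors. HNRNPC, the knocked-down protein, is a nuclear RNA-binding protein that binds runs of uridine in transcripts and shapes splicing.

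Library totals were 28323403 to 34913500 counts. HNRNPC itself was at 33.9 ± 1.80 CPM (counts scaled to library size and TMM factor) in shHNRNPC cells and 587 ± 12.5 CPM in control cells (SD, n = 4 each), which is 5.77% of control. All 8 squamous epithelial markers listed were measured, with a summed level of 2352 to 2397 CPM in shHNRNPC libraries and 1640 to 1671 CPM in control libraries. The sum was carried mainly by KRT5, with a mean of 1123 CPM in shHNRNPC cells and 565 CPM in control cells. CDH1 (508 CPM in shHNRNPC cells and 314 CPM in control cells) and SFN (351 and 328) came next in the sum. Within it 4 markers were lower in shHNRNPC cells: TP63 (129 CPM, against 176 CPM in control cells), DSG3 (73.5 against 108), KRT14 (4.89 against 8.35) and KRT6A (1.963 against 6.04). Markers of other cell types were low but moved too. The 5 fibroblast markers summed to 8.38 to 9.498 CPM in shHNRNPC libraries and 3.65 to 3.88 CPM in control libraries, mostly COL1A1. The 3 neural markers summed to 13.7 to 14.1 CPM in shHNRNPC libraries and 23.4 to 25.8 CPM in control libraries, mostly SYT1. The 4 endothelial markers summed to 1.24 to 1.84 CPM in shHNRNPC libraries and 2.15 to 2.45 CPM in control libraries, and the 2 immune markers analysed stayed between 0 and 0.151 CPM in every library. The part of these markers in the results was not tested, and in bulk RNA fewer cells of a type and less RNA per cell cannot be told apart.

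Because HNRNPC binds uridine runs, the longest T run in the annotated 3′ UTR of each gene's longest coding transcript (GENCODE release 29) was located, and stretches of 30 bases around it are shown for the ephrins and the 2 most abundant receptors. Capitals mark the T run, and of the run in EFNA5 only its first 18 bases are shown.
EFNA5: tggtgctacaacTTTTTTTTTTTTTTTTTT
EFNA1: tacaactggagTTTTTTTatacaatgttct
EFNB1: cttttgtgttcaTTTTTTagctgtcaactc
EFNB2: agttataaataTTTTTTTctttctttgttt
EPHA2: ttaatttattaTTTTTTTTatatttattgt
EPHB4: aaactcaatcaTTTTTTTcccttgtaaatg
In GRCh38 these stretches lie in 3′ UTR exons at chr5:107380394-107380423 on the minus strand for EFNA5, chr1:155134795-155134824 on the plus strand for EFNA1, chrX:68841029-68841058 on the plus strand for EFNB1, chr13:106489895-106489924 on the minus strand for EFNB2, chr1:16124390-16124419 on the minus strand for EPHA2 and chr7:100802980-100803009 on the minus strand for EPHB4. The EFNA5 run is 37 bases long, a length reached by 13 of 11539 tested genes with a 3′ UTR of at least 50 bases, or 0.113%. The other 9 genes had longest runs of 4 to 8 bases, around the median of 7 over those genes. Runs of at least 5 T had a median density of 3.29 per kb over those genes. The density was above it in EPHB4 (7.81 per kb), EFNB1 (5.36), EFNA5 (4.35) and EPHA2 (3.42) and below it in the other 6 genes, from 0 in EPHB3 to 2.90 in EPHA1. The counts here do not measure HNRNPC binding, and introns were not examined.

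After HNRNPC knockdown 4 of the 5 tested receptors and both A-type ephrins of the set were modestly higher. Both B-type ephrins of the set were lower. Of the 10 genes 9 had enough counts to be tested, and 8 of these changed: EPHA1, EPHA2, EPHB2, EPHB4, EFNA1 and EFNA5 rose, and EFNB1 and EFNB2 fell (quasi-likelihood test of edgeR, adjusted p under 0.05 by the Benjamini-Hochberg method over all genes). This count stands against a background in which 77.3% of 12001 tested genes were called, 38.7% higher and 38.6% lower. The CPM ranges of the groups did not overlap for those 8 genes, as for 70.8% of all tested genes. The size of the changes was ordinary as well, with a median absolute log2 fold change of 0.28 over the 9 tested genes and 0.30 over all tested genes. Only EFNA5 among the 9 reached a 1.5-fold change. In RefSeq on GRCh38 the receptors lie at chr7:143391129-143408856 (EPHA1), chr1:16124337-16156069 (EPHA2), chr2:221418027-221574202 (EPHA4), chr1:22710838-22921500 (EPHB2), chr3:184561785-184582408 (EPHB3) and chr7:100802565-100827523 (EPHB4). The ephrins lie at chr1:155127876-155134899 (EFNA1), chr5:107376894-107670937 (EFNA5), chrX:68829021-68842160 (EFNB1) and chr13:106489745-106535662 (EFNB2).

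**Figure D1:**
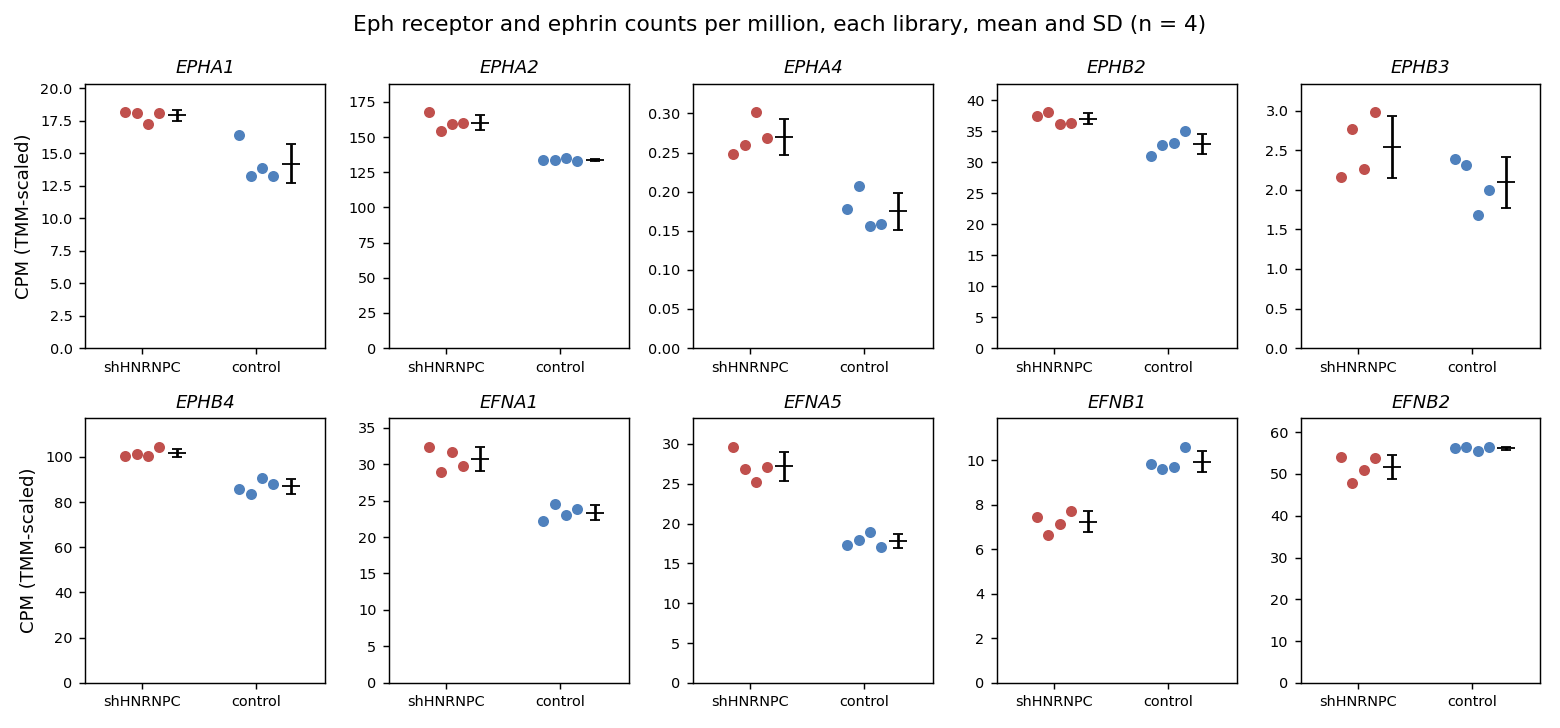
TMM-scaled CPM (y axis, from 0) of each of the 10 genes in every library, with shHNRNPC left and control right in each panel, points for single libraries and bars for mean and SD (n = 4). In EFNA5 the 4 shHNRNPC libraries lie between 25.2 and 29.6 CPM, all above the controls, whereas in EFNB1 they lie between 6.65 and 7.74 CPM, all below them.

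EPHA2 is the receptor most studied in carcinoma cells and binds EFNA1 with high affinity. It had 167.9, 154.4, 159.2 and 159.8 CPM in shHNRNPC libraries 1 to 4, against 133.7, 133.8, 135.1 and 133.0 CPM in control libraries 1 to 4. Every shHNRNPC library was above every control library, and the shHNRNPC libraries were spread more widely (SD 5.58 CPM in shHNRNPC and 0.864 CPM in control). EPHA2 rose by 0.26 on the log2 scale (SE 0.025, edgeR adjusted p = 3.2e-14), or by 19.7%.

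EPHA1, an epithelial receptor and the founding member of the family, rose by 0.33 (SE 0.070, edgeR adjusted p = 2.2e-05). It was at 18.2, 18.1, 17.3 and 18.1 CPM in shHNRNPC libraries and 16.4, 13.2, 13.9 and 13.3 CPM in control libraries. Control library 1 was the highest of the controls, and the shHNRNPC libraries lay close together above it. Without control library 1 the log2 fold change of EPHA1 was 0.41, the highest over the alternatives tried.

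EPHA4, a receptor that binds both A- and B-type ephrins, was hardly detected. Its counts were 7, 9, 10 and 8 in shHNRNPC libraries and 6, 7, 5 and 5 in control libraries, or 0.269 ± 0.023 CPM in shHNRNPC cells and 0.175 ± 0.024 CPM in control cells (SD, n = 4 each). It was too low for the test. Where low genes were kept, edgeR gave a log2 fold change of 0.61 (SE 0.53, adjusted p = 0.333) and DESeq2 gave 0.62 (SE 0.58, adjusted p = 0.366), and neither passed the threshold. The CPM ranges of the groups did not overlap for EPHA4, at counts of 5 to 10 per library, nor did they for 70.8% of all tested genes. An exact two-sided permutation test gave an unadjusted p = 0.0286, the smallest that 4 against 4 libraries can give. Before scaling the groups met, with 7 counts in shHNRNPC library 1 and 7 in control library 2.

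Among the B-type receptors EPHB4, the main receptor of ephrin-B2 in vessels and epithelia, rose by 0.23 (SE 0.030, edgeR adjusted p = 6.3e-10), or by 17.0%. Its levels were 100.4, 101.3, 100.4 and 104.5 CPM in shHNRNPC libraries and 85.7, 83.4, 90.8 and 87.8 CPM in control libraries. The groups were well apart although the change was small.

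EPHB2, which with EPHB3 positions cells in the intestinal crypt of the mouse, rose least of the called receptors, by 0.17 (SE 0.046, edgeR adjusted p = 0.00089). It had 37.4, 38.1, 36.1 and 36.4 CPM in shHNRNPC libraries against 31.0, 32.7, 33.1 and 34.98 CPM in control libraries. The lowest shHNRNPC library was 36.1 CPM and the highest control library 34.98 CPM, so the groups were barely separated.

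EPHB3 had 2.17, 2.76, 2.26 and 2.98 CPM in shHNRNPC libraries and 2.39, 2.31, 1.69 and 2.001 CPM in control libraries. The groups overlapped, and its log2 fold change of 0.28 did not pass the test (SE 0.19, edgeR adjusted p = 0.168). Its 95% interval of -0.09 to 0.64 includes the values of the receptors that rose, and its counts were 54 to 96 per library.

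Among the called genes of the set, the A-type ephrins EFNA5 and EFNA1 had the largest rises. The 95% intervals of EFNA1 (0.29 to 0.50) and the receptor EPHA1 (0.20 to 0.47) overlapped. EFNA3, an A-type ephrin outside the set, did not pass the test. EFNA5, a ligand first known from the guidance of retinal axons, was at 29.6, 26.8, 25.2 and 27.1 CPM in shHNRNPC libraries and 17.26, 17.98, 18.99 and 17.09 CPM in control libraries. All 4 shHNRNPC libraries lay above all 4 controls. The rise was 0.61 on the log2 scale (SE 0.057, edgeR adjusted p = 6.4e-15), or 52.2%, and 21.5% of all tested genes changed more in absolute size. EFNA5 is the gene with the T run of 37 bases shown above, and a link between this run and the rise was not tested.

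EFNA1, a ligand of EPHA2 that was found as a gene induced by tumour necrosis factor in endothelial cells, had 32.4, 28.9, 31.7 and 29.7 CPM in shHNRNPC libraries and 22.1, 24.5, 23.0 and 23.8 CPM in control libraries. All shHNRNPC libraries were above all controls. Its rise was 0.39 (SE 0.052, edgeR adjusted p = 7.4e-10), or 31.3%.

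The B-type ephrins of the set moved the other way. EFNB1, which is mutated in craniofrontonasal syndrome, fell by 0.46 on the log2 scale (SE 0.092, edgeR adjusted p = 9.3e-06) to 72.8% of control. It had 7.46, 6.65, 7.12 and 7.74 CPM in shHNRNPC libraries and 9.84, 9.63, 9.68 and 10.6 CPM in control libraries, with no overlap.

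EFNB2, the ligand that marks arteries and the partner of EPHB4, fell by 0.12 (SE 0.039, edgeR adjusted p = 0.0036), to 91.9% of control. Its levels were 54.1, 47.9, 50.9 and 53.8 CPM in shHNRNPC libraries and 56.2, 56.3, 55.6 and 56.5 CPM in control libraries. The controls lay close together, while the shHNRNPC libraries differed among themselves, with libraries 1 and 4 close to the controls. The call rested on shHNRNPC library 2. Without it the log2 fold change was -0.08 (edgeR adjusted p = 0.0577), and without shHNRNPC libraries 2 and 3 it was -0.06 (edgeR adjusted p = 0.265), against a range of 0.00041 to 0.265 in adjusted p over all alternatives. Of the EFNB2 exon bases 26.2% overlap the annotated gene AL138689.2, and whether counting used strand was not stated.

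**Figure D2:**
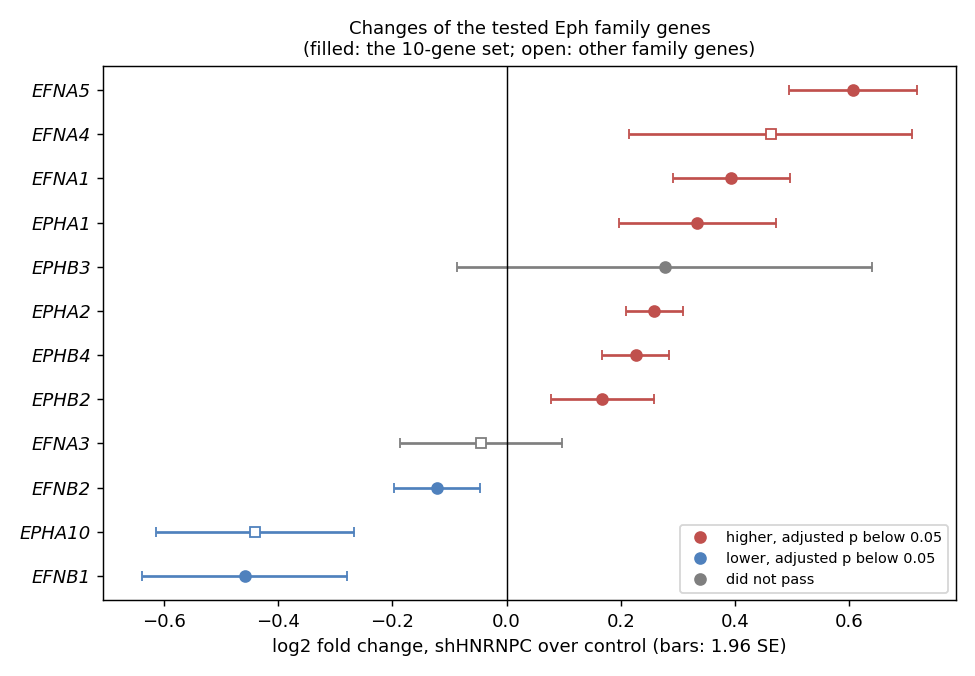
Log2 fold change of shHNRNPC over control (x axis) for the 12 tested Eph family genes (y axis), with bars for 95% intervals, filled circles for the 9 tested genes of the set, open squares for 3 other family genes, and colours for the call. EFNA5 lies highest at 0.61 and EFNB1 lowest at -0.46, and the bars of EPHB3 and EFNA3 cross 0.

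The other family genes were followed from the full list of Eph and ephrin symbols. Of 12 further genes 11 were measured and 3 had enough counts to be tested, of which 1 rose, 1 fell and 1 did not pass. EPHA10, a receptor whose kinase domain is predicted to be inactive, fell by 0.44 (SE 0.089, edgeR adjusted p = 1.0e-05), with 8.01 ± 0.606 CPM in shHNRNPC cells and 10.9 ± 0.695 CPM in control cells (SD, n = 4 each). It went opposite to the 4 called receptors of the set.

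EFNA4, EFNA3 and EFNA1 lie in this order on chromosome 1 (GRCh38), from 155063740 to 155069553, 155078837 to 155087538 and 155127876 to 155134899. EFNA4 rose by 0.46 (SE 0.13, edgeR adjusted p = 0.00081), with 5.47 ± 0.497 CPM in shHNRNPC cells and 3.97 ± 0.407 CPM in control cells. EFNA3, between EFNA4 and EFNA1, was at 15.02 ± 1.06 CPM in shHNRNPC cells and 15.5 ± 1.38 CPM in control cells, and its log2 fold change of -0.05 (SE 0.072, 95% interval -0.19 to 0.10, edgeR adjusted p = 0.577) did not pass. Exon overlap with AL691442.1 is 44.7% for EFNA3, and EFNA4 overlaps it in part as well. The remaining 8 genes (EPHA3, EPHA5, EPHA6, EPHA7, EPHB1, EPHB6, EFNA2 and EFNB3) had 1 to 49 counts summed over all 8 libraries and were not tested, and EPHA8 was not analysed here.

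Levels of different genes were compared per kilobase of annotated exon. EPHA2 was highest, at 38.6 ± 1.34 CPM per kb in shHNRNPC cells and 32.2 ± 0.208 CPM per kb in control cells (SD, n = 4 each), and EPHB4 came next, at 15.8 ± 0.300 CPM per kb in shHNRNPC cells and 13.5 ± 0.489 CPM per kb in control cells. In shHNRNPC cells EFNA1 (12.1 ± 0.646 CPM per kb) came before EFNB2 (10.3 ± 0.577), whereas in control cells EFNA1 (9.20 ± 0.397) came after EFNB2 (11.2 ± 0.080). This exchange depends on the length used, since with the longest coding transcript EFNA1 came before EFNB2 in both groups. EFNA5, EPHA1, EPHB2 and EFNB1 followed at 2.19 to 4.77 CPM per kb in shHNRNPC cells and 2.63 to 3.13 CPM per kb in control cells. In control cells EFNA5, EPHA1 and EFNB1 did not differ beyond their spread as neighbours in this order, while in shHNRNPC cells no neighbours overlapped. EPHB3 (0.561 CPM per kb in shHNRNPC cells and 0.463 in control cells) and EPHA4 (0.036 CPM per kb in shHNRNPC cells and 0.023 in control cells) came last in both groups.

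**Figure D3:**
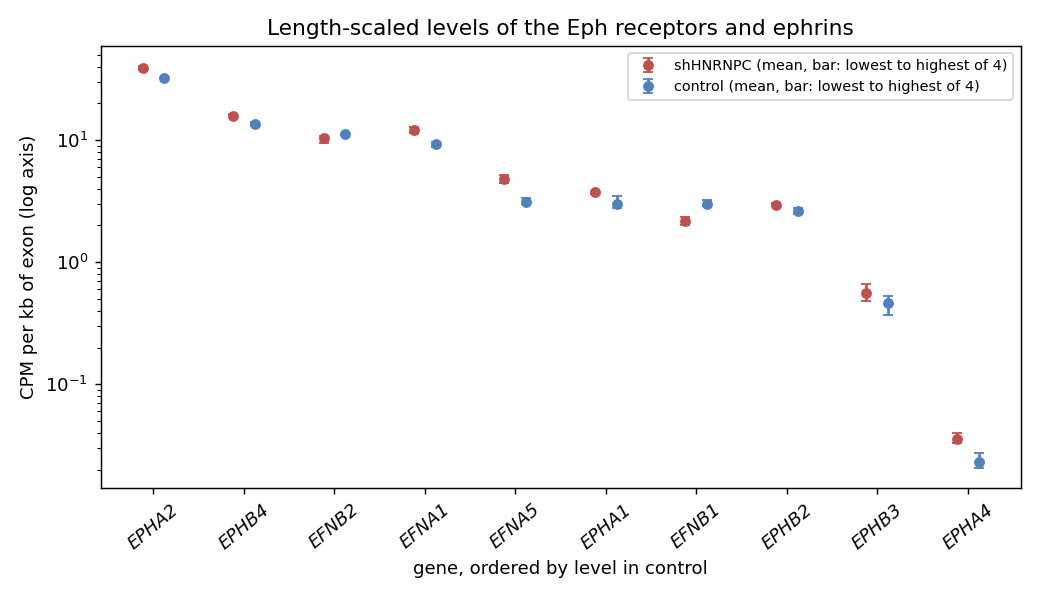
CPM per kb of exon (y axis, log scale) of the 10 genes, ordered by their level in control cells, with the shHNRNPC mean left of the control mean for each gene and bars from the lowest to the highest of 4 libraries. The levels run from 38.6 CPM per kb for EPHA2 in shHNRNPC cells to 0.023 CPM per kb for EPHA4 in control cells.

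Summed over the genes of the set in each class, the length-scaled level of the A-type ephrins was 16.9 ± 0.808 CPM per kb in shHNRNPC cells and 12.3 ± 0.431 CPM per kb in control cells (SD, n = 4 each), a ratio of 1.37. That of the B-type ephrins was 12.5 ± 0.714 CPM per kb in shHNRNPC cells and 14.2 ± 0.196 CPM per kb in control cells, a ratio of 0.880. EFNB2 held 82.5% of the B-type sum in shHNRNPC cells and 78.9% in control cells. EFNB2 itself did not pass the test without shHNRNPC library 2. EFNA1 held 71.7% of the A-type sum in shHNRNPC cells and 74.6% in control cells. With EFNA3 and EFNA4 added, the A-type sum was 29.1 ± 0.448 CPM per kb in shHNRNPC cells and 23.6 ± 1.16 CPM per kb in control cells, a ratio of 1.23. The A-type ephrins of the set made up 57.9, 58.2, 57.9 and 55.8% of the summed level of the 4 ephrins in shHNRNPC libraries and 45.3, 47.5, 46.9 and 46.1% in control libraries. The groups did not overlap in this share. This follows from the 4 ephrins, since EFNA1 and EFNA5 were each higher and EFNB1 and EFNB2 each lower without overlap. The CPM ranges of single genes did not overlap for 70.8% of all tested genes, and no such share was computed for summed genes. The share itself depends on the length and the genes summed. It was 62.7% in shHNRNPC cells and 52.0% in control cells with the longest coding transcript, and 69.96% in shHNRNPC cells and 62.4% in control cells with EFNA3 and EFNA4 added. A-type receptors summed to 42.4 ± 1.36 CPM per kb in shHNRNPC cells and 35.2 ± 0.383 in control cells, of which EPHA2 held 91.0% in shHNRNPC cells and 91.4% in control cells. B-type receptors summed to 19.3 ± 0.368 CPM per kb in shHNRNPC cells and 16.6 ± 0.483 in control cells, of which EPHB4 held 81.8% in shHNRNPC cells and 81.3% in control cells. These sums are given without a test, since the genes were chosen with results known.

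The ratio of EFNB2 to EPHB4, a ligand and receptor pair, was 0.652 ± 0.035 in shHNRNPC cells and 0.8292 ± 0.034 in control cells on the length-scaled level. That of EFNA1 to EPHA2 was 0.313 ± 0.0099 in shHNRNPC cells and 0.286 ± 0.013 in control cells. The first ratio was lower in all 4 shHNRNPC libraries than in any control. This follows from the separate CPM ranges of EFNB2 and EPHB4 given above and adds no result to them. The second ratio was higher in all 4 shHNRNPC libraries than in any control. The second was barely separated, with 0.305 in the lowest shHNRNPC library and 0.300 in the highest control library. The CPM ranges of the groups did not overlap for 70.8% of all tested genes, so such separation was common for single genes. No such share was computed for ratios of genes.

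**Figure D4:**
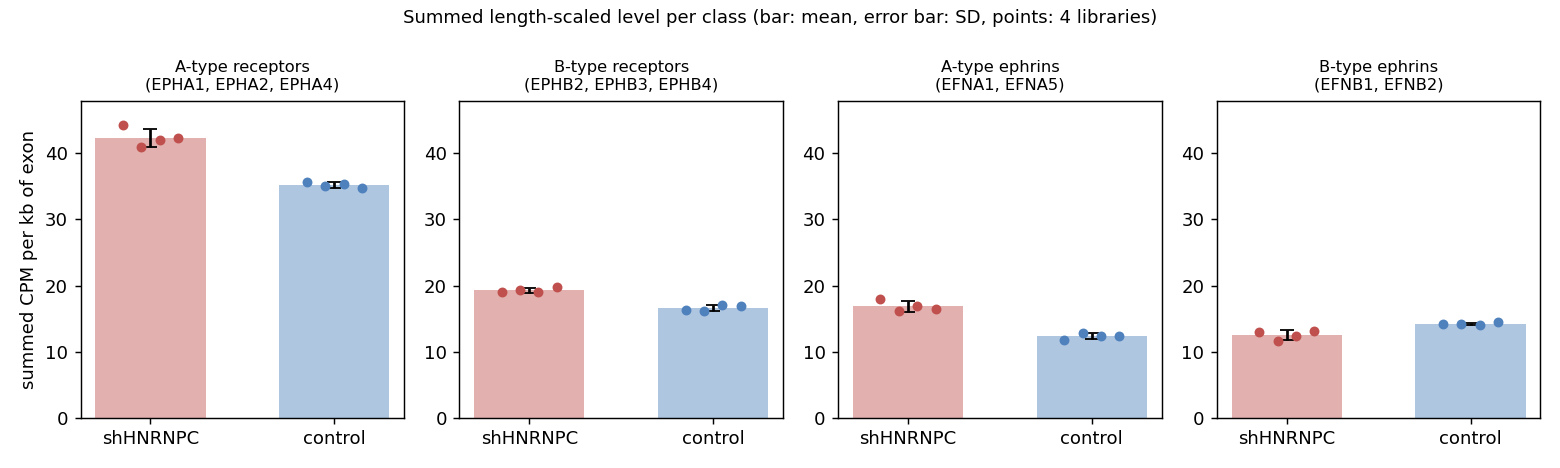
Summed CPM per kb of exon (y axis, from 0) of the A-type receptors, B-type receptors, A-type ephrins and B-type ephrins, with shHNRNPC left and control right, bars for means, error bars for SD and points for the 4 libraries. The A-type ephrins of the set are higher in shHNRNPC cells (16.9, against 12.3 in control cells). The B-type ephrins of the set are lower (12.5, against 14.2 in control cells).

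Partners of Eph signalling were described from a list by role. Of 78 genes 73 were tested, and 30 rose, 34 fell and 9 did not pass, or 87.7% called against 77.3% of all tested genes. The median log2 fold change was -0.06, against -0.01 over all tested genes. The median absolute log2 fold change was smaller in the partners, at 0.21 against 0.30 over all tested genes. Over all tested genes 38.7% rose and 38.6% fell, and no role was tested against these shares. Of 9 genes of proteases and ectodomain processing 4 rose and 5 fell. ADAM10, which cleaves ephrins bound to their receptor, rose by 0.42 (edgeR adjusted p = 2.8e-23), with 160.9 ± 3.34 CPM in shHNRNPC cells and 120.5 ± 2.41 CPM in control cells, and ADAM17 fell by 0.41 (edgeR adjusted p = 8.6e-23), with 122.1 ± 3.98 CPM in shHNRNPC cells and 162.7 ± 2.61 CPM in control cells.

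Of 12 tested adaptors 7 fell, 1 rose and 4 did not pass, or 66.7% called against 77.3% of all tested genes. GRB7 had 16.7 ± 1.88 CPM in shHNRNPC cells and 26.8 ± 1.14 CPM in control cells (log2 fold change -0.68), and GRB10 fell by 0.65. Of 11 kinases 7 rose and 4 fell. FYN, a SRC-family kinase downstream of both receptors and ephrins, had 3.83, 3.05, 3.41 and 4.06 CPM in shHNRNPC libraries and 12.7, 11.7, 12.3 and 10.9 CPM in control libraries. FYN fell by 1.74 on the log2 scale (SE 0.10, edgeR adjusted p = 1.2e-23), while ABL2, a kinase of the ABL family, rose by 0.69.

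Among 14 exchange factors and GTPase activators, 6 rose, 6 fell and 2 did not pass. VAV3, an exchange factor that acts downstream of Eph receptors, was at 35.4, 35.3, 33.2 and 33.5 CPM in shHNRNPC libraries and 13.95, 12.5, 13.1 and 12.7 CPM in control libraries. It rose by 1.39 (SE 0.056, edgeR adjusted p = 1.9e-32), and TIAM2, a RAC exchange factor, by 0.94. Small GTPases rose in 5 of 8 cases and fell in 2, with HRAS higher by 0.67 and ARF6, a GTPase of membrane traffic, lower by 0.58. Of 8 phosphatase and turnover genes 6 fell and 2 rose; CBLB, a ubiquitin ligase, fell by 0.54 and the receptor phosphatase PTPRF by 0.41. PDZ and junction partners rose in 5 of 11 cases and fell in 4. E-cadherin, CDH1, which Eph signalling is known to influence in epithelia, was at 508 ± 3.51 CPM in shHNRNPC cells and 314 ± 7.13 CPM in control cells (log2 fold change 0.69, edgeR adjusted p = 1.1e-40). The polarity gene PARD6B rose by 0.66.

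**Figure D5:**
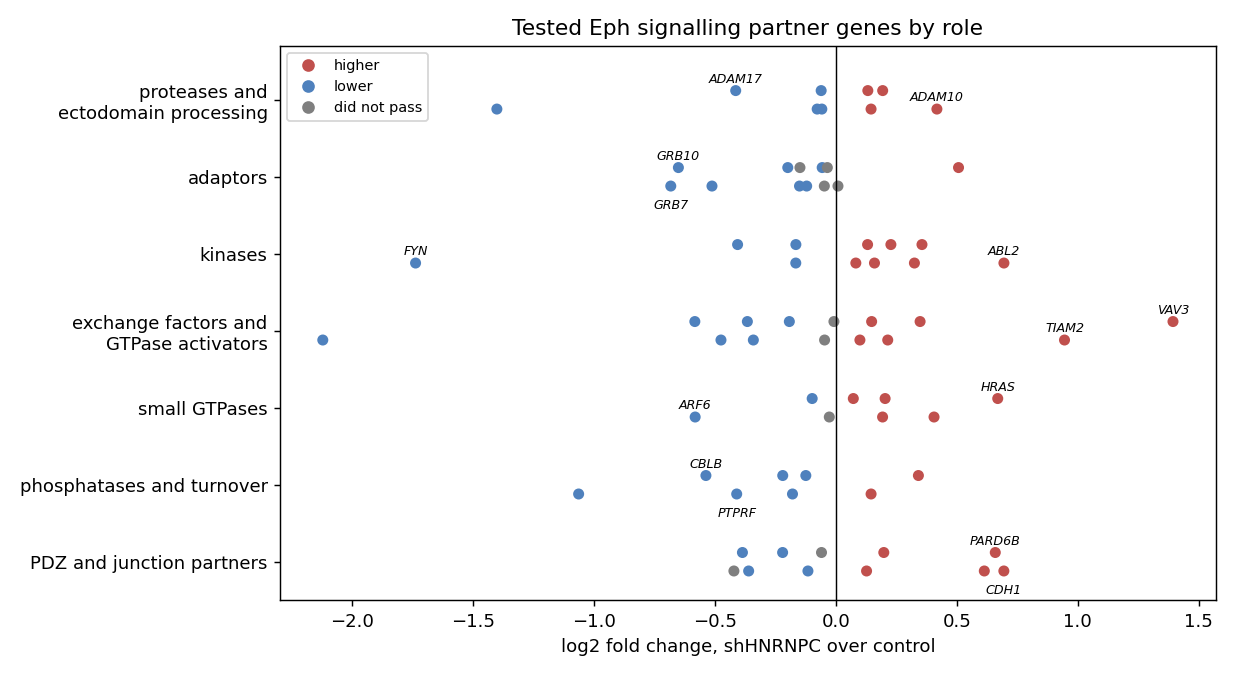
Log2 fold change of shHNRNPC over control (x axis) for the 73 tested partner genes by role (y axis), with colours for the call and names for the 2 largest called changes per role at 1 CPM or more. FYN lies at -1.74 and VAV3 at 1.39.

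Upstream sequence was read for the most abundant receptor and for the ephrins with the largest rise and fall, from the RefSeq windows on GRCh38.p14. Shown are 150 bases that end just before the annotated gene start, with matches in capitals on either strand to the GC box (GGGCGG), the cAMP response element (TGACGTCA), the CCAAT box (CCAAT) and the AP-1 site (TGANTCA).
EPHA2: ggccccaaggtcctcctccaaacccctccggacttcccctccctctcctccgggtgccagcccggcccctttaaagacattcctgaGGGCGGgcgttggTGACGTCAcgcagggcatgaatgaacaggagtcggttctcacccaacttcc
EFNA5: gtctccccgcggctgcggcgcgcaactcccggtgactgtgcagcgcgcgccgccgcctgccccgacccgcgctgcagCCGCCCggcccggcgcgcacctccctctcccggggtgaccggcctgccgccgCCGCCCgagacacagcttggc
EFNB1: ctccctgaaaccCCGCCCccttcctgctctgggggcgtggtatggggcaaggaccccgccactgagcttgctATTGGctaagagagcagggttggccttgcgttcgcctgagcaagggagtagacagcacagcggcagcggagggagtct
They lie at chr1:16156070-16156219 on the minus strand, chr5:107670938-107671087 on the minus strand and chrX:68828871-68829020 on the plus strand. Over 250 bases before the start, a GC box was found in all 10 genes, against 46.2% of 27305 genes with a window and 74.9% of the 9890 tested genes among them. The cAMP response element was found in EPHA2 alone (3.53% of tested genes), the CCAAT box in 6 of 10 genes (41.8% of tested genes) and the AP-1 site in 0 of 10 (6.20% of tested genes). These are matches of letters and say nothing of factor binding.

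Across the 8 libraries the log2 CPM of EFNA5 was closest to that of WSB1 (Pearson r = 0.9974), GATD1 and GAS2L3, and that of EFNB1 to ANKRD2 (0.9990), HPS4 and XRCC1. The points share the 2 groups, and 2962 of 12000 other tested genes had r above 0.9 with EFNA5, so the likeness is a description of the group difference.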

How the data were processed

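The authors deposited a table of unnormalised read counts for each gene for 4 shHNRNPC and 4 control samples, and columns were matched to samples by title. Per the series design text, 150 bp paired-end reads were cleaned with fastp. Per the submitters' processing notes, hg38 was the genome build. No source used here names the aligner, counter, annotation or strand setting.

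Genes were kept with edgeR's filterByExpr (minimum count 10, minimum total 15), scaled by TMM (factors 0.990 to 1.01) and tested on the whole table with glmQLFit (robust) and glmQLFTest on the group term, with Benjamini-Hochberg adjustment over 12001 genes and a threshold of 0.05. The SE was derived from the log2 fold change and its F statistic, and 95% intervals from the SE by the normal approximation. Log2 CPM used a prior count of 2. Lengths and exon overlap came from GENCODE release 29 and positions from RefSeq (GRCh38.p14). Software was R 4.3.3, edgeR 4.0.16, DESeq2 1.42.0 and Python 3.11.15. The test was checked on simulated counts with few changed genes. It was not checked where most genes change, as in these data.

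Replicate libraries differed beyond sampling noise (chi-square per degree of freedom 2.66 to 3.70), and all 8 were kept as separate samples. The spread beyond sampling noise that edgeR estimated was small, a common coefficient of variation of 3.02%. It does not settle whether the libraries are separate cultures. The genes and lists were chosen with earlier results of these data known. Named genes are the 10 genes, HNRNPC, other family genes, up to 2 called genes per partner role (at least 1 CPM, ranked by size of change), and the 3 genes closest in pattern to the largest rise and fall. Alternatives were DESeq2, no TMM factors, no filter, a filter of 1 CPM in 4 libraries, a replicate block, each library left out, shHNRNPC libraries 1 and 4 or 2 and 3 left out, and another gene length. Class sums with the other tested family genes, and the ephrin share with these or with another length, were added after seeing the data.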

Additional observations from a re-analysis of the deposited data

Results flagged for a closer look

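EPHA1 in shHNRNPC library 3 was at 17.3 CPM, while the other 3 shHNRNPC libraries lay between 18.1 and 18.2 CPM, so that its gap to the nearest of them took most of the range of the group (0.914 of it, above the 95% limit of Dixon's test for 4 samples). It was the only such library among the 20 groups checked, 10 genes in 2 groups each, and chance gives about 1 in 20. The library still lay above all 4 controls.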

How the results depend on the processing

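The 9 tested genes were recomputed under 15 alternatives, and 133 of 135 values kept their direction and their side of the threshold, none reversed, and the 2 exceptions are those of EFNB2 without shHNRNPC library 2 and without shHNRNPC libraries 2 and 3. The number of called genes of the set was 8 of 9 in the reported fit and 7 to 8 in every alternative. With the replicate number as a block it was 8, and 9219 genes were called in all, against 9275. Samples with the same number did not deviate together (correlations -0.055 to 0.017 for 4 pairs, and 1 of 4 shHNRNPC libraries correlated best with its own number), so the numbers were not taken to pair the samples. Without TMM factors the split of all calls was 4400 higher and 4862 lower, against 4640 and 4635, and the median of all tested genes moved to -0.03. With the length of the longest coding transcript 4 of 10 genes kept their rank of level in control cells, by exchanges between neighbours, and the cause follows from the lengths. With other tested family genes added, the control sum of the A-type receptors was 36.6 CPM per kb, and the A-type ephrin sum was 29.1 CPM per kb in shHNRNPC cells and 23.6 in control cells. The A-type share of the ephrins was then 69.96% in shHNRNPC cells and 62.4% in control cells, and with the longest coding transcript 62.7% in shHNRNPC cells and 52.0% in control cells, so that its level moved while shHNRNPC stayed higher. Counts under about 10 per library left EPHA4 and 8 other family genes without a usable comparison.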

Other observations

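The deposited table annotates all 10 genes to axon guidance, and the other genes with this annotation form a list looked at after the data were seen. Of 148 such genes outside the Eph family 124 were tested, 61 rose and 41 fell, or 82.3% called. Of all tested genes 77.3% were called, 38.7% higher and 38.6% lower. More of the listed genes rose than fell, and this split was not tested. Their median log2 fold change was 0.09, against -0.01 over all tested genes.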
